A study of Saccharomyces cerevisiae S288C with 12 samples.

Results

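SWI/SNF is a chromatin remodeling complex of budding yeast that slides and evicts nucleosomes with the energy of ATP. Its subunits were found in screens for mutants that fail to switch mating type or to ferment sucrose, which gave the SWI and SNF gene names. It is recruited to promoters by activators, and it has been linked to keeping Cse4, the centromeric histone H3 variant, from sites away from centromeres. The data here show where overexpressed Cse4 lay at the genes that encode this complex, not what the complex did.

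The genes were SNF2, SNF5, SNF6, SNF11, SNF12, SWI1, SWI3, SWP82, TAF14 and ARP7, 10 of 6002 nuclear protein-coding genes. The group was chosen by the fold enrichment of the SNF11 promoter peak, which was among the highest in the series, and the other genes were added as subunits of the same complex. The fold of the SNF11 peak is therefore given as a description without a test. For each gene, the deposited peaks that overlapped its annotated body or 1 kb on either side were taken, and this stretch is called its window. Coordinates are sacCer3, which is the R64 assembly of the annotation. The gene start and end are those of the coding sequence.

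Cse4 was immunoprecipitated through an HA tag and sequenced from 3 strains with 2 libraries each. All strains lacked PSH1, which encodes a ubiquitin ligase for Cse4, and all expressed Cse4 from the GAL promoter, which galactose switches on, with a 6His-3HA tag on the protein. The tagged Cse4 was wild type, K215/216A (lysines 215 and 216 changed to alanine) or K215/216R (the same lysines changed to arginine). Cells in 2% raffinose at 30 degrees C received 2% galactose for 2 hours. Every strain thus overexpressed its Cse4 in the absence of Psh1, and the input libraries were not analysed here. The labels do not say that replicates came from separate cultures, so differences between replicates may be technical.

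The lists held 3123 to 4822 peaks per library. Depth was recovered from the MACS2 values as the genome background, the lowest local background in a library in fragments per base. It was 59.5 and 126 for wild type, 146 and 148 for K215/216A, and 86.2 and 156 for K215/216R. Wild type replicate 1 was the shallowest library and had the shortest list. The median fold of all peaks in a list was 1.66 and 1.48 for wild type, 1.43 and 1.45 for K215/216A, and 1.57 and 1.46 for K215/216R.

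Cse4 peaks lay at 8 of the 10 genes, and their heights spanned a wide range. A peak overlapped the window in both libraries of a strain at 7 genes for wild type, 8 for K215/216A and 8 for K215/216R, where the same rule called 62.1%, 75.1% and 68.8% of all genes. SNF2, SNF6, SNF11, SNF12, SWI1, SWI3 and ARP7 had a peak in all 6 libraries, as did 54.3% of all genes. TAF14 had one in every library but wild type replicate 1. SNF5 and SWP82 had none in any library, as was the case for 7.85% of all genes. These shares put the group near the background, and no difference from other genes was shown. The counts include SNF11, whose call follows from its choice by a promoter peak.

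**Figure D1:**
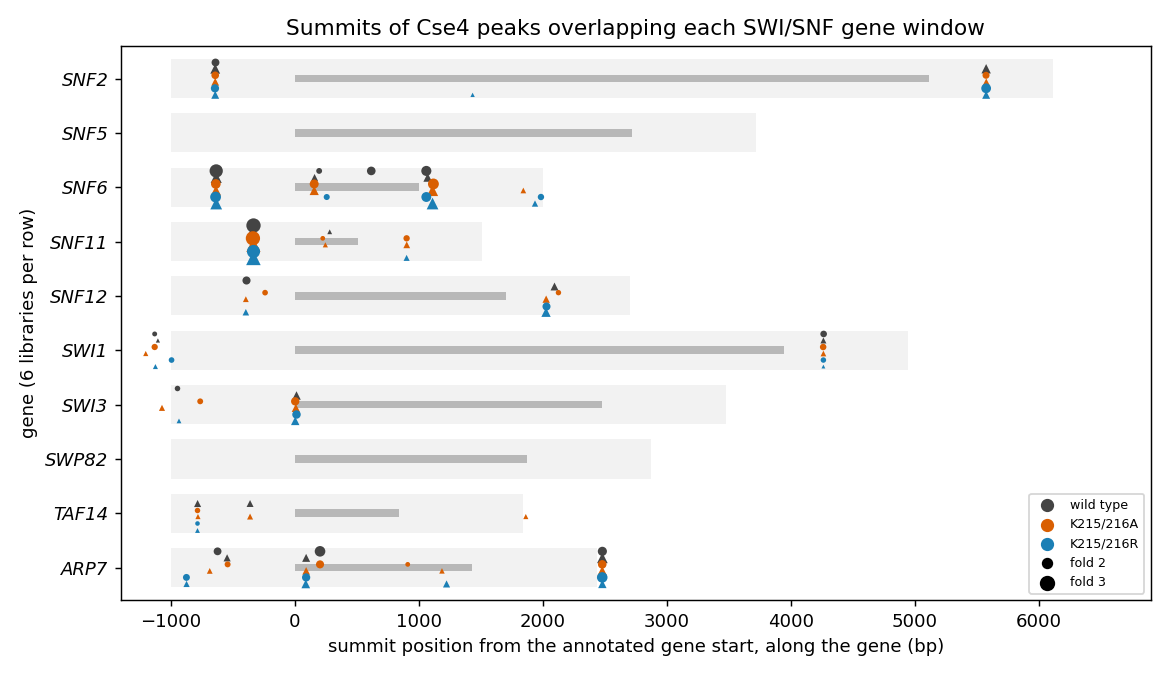
Position of each Cse4 peak summit that belongs to a window, in bp from the annotated gene start along the direction of the gene (x axis), for the 10 genes (y axis). Grey bars are gene bodies and pale boxes are the windows; within a row the 6 libraries are stacked, colors are strains, circles are replicate 1, triangles replicate 2, and marker area grows with the authors' fold. Summits of different libraries stack at the same places upstream of SNF11, SNF6 and SNF2, and the rows of SNF5 and SWP82 are empty.

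Peak sites lay both inside and outside the gene bodies of the complex. When each summit of the 6 libraries was joined to the next one in its window if within 200 bp, the 104 peaks made 25 sites. A chain of such summits can span more than 200 bp. Of these, 8 sites were inside a SWI/SNF gene, 9 were inside another gene, and the others were between genes. The windows hold 1 kb on either side of each gene, so sites outside the bodies are expected from the rule. Sites were not counted over all genes, so these numbers have no background beside them. All 6 libraries had a summit at 9 sites, 12 sites had summits in 2 to 5 libraries, and 4 sites in 1 library. Among the 9 sites, summits agreed within 10 bp over all libraries at 5 sites, and the widest spread was 332 bp, inside HTS1 next to ARP7. Both libraries had a summit at 10 sites for wild type, 18 for K215/216A and 14 for K215/216R. At equal list length these numbers were 9, 12 and 11, and depth moved with the strains as given above. Without wild type replicate 1 the wild type number was 16.

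Peak density in the member windows was close to that in the windows of all genes, and furthest below it in wild type replicate 2. The member windows contained 0.312 and 0.385 peaks per kb of window for wild type, 0.457 and 0.529 for K215/216A, and 0.361 and 0.457 for K215/216R. Windows of neighboring genes overlap, so a peak can count more than once in the density over all genes. The windows of all genes contained 0.318 and 0.477, 0.475 and 0.490, and 0.370 and 0.494 in the same libraries. The median best fold of the SWI/SNF genes with a peak was 1.72 and 1.93 for wild type, 1.70 and 1.70 for K215/216A, and 1.92 and 1.81 for K215/216R. Over all genes with a peak it was 1.79 and 1.62, 1.55 and 1.57, and 1.68 and 1.61. Their windows were longer than usual, with a median of 3786 bp against 3200 bp for all genes.

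SNF11 (YDR073W, chromosome IV, 592439 to 592948) encodes a small subunit that binds the Snf2 ATPase, and it had the highest peak of the group in every library. The authors' fold at its upstream peak was 3.25 and 2.76 in wild type replicates 1 and 2. It was 3.23 and 3.22 for K215/216A, and 2.90 and 3.32 for K215/216R. The strains overlapped, and the replicates of wild type and K215/216R lay further apart than the strain means of 3.004 ± 0.348, 3.22 ± 0.0128 and 3.11 ± 0.297 (SD, n = 2).

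Within each list this peak was close to the top. By fold it ranked 11 of 3123 and 13 of 4720 peaks for wild type, 5 of 4575 and 6 of 4725 for K215/216A, and 23 of 3604 and 6 of 4822 for K215/216R. Among promoters with a summit within 500 bp upstream of the gene start it ranked 9 and 8, 2 and 2, and 11 and 1 in the same order of libraries. The promoters at ranks 10 and 11 of the strain means had folds of 2.81 and 2.76 for wild type, 2.71 and 2.63 for K215/216A, and 2.88 and 2.86 for K215/216R. The median promoter fold of those means was 1.68, 1.53 and 1.61.

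**Figure D2:**
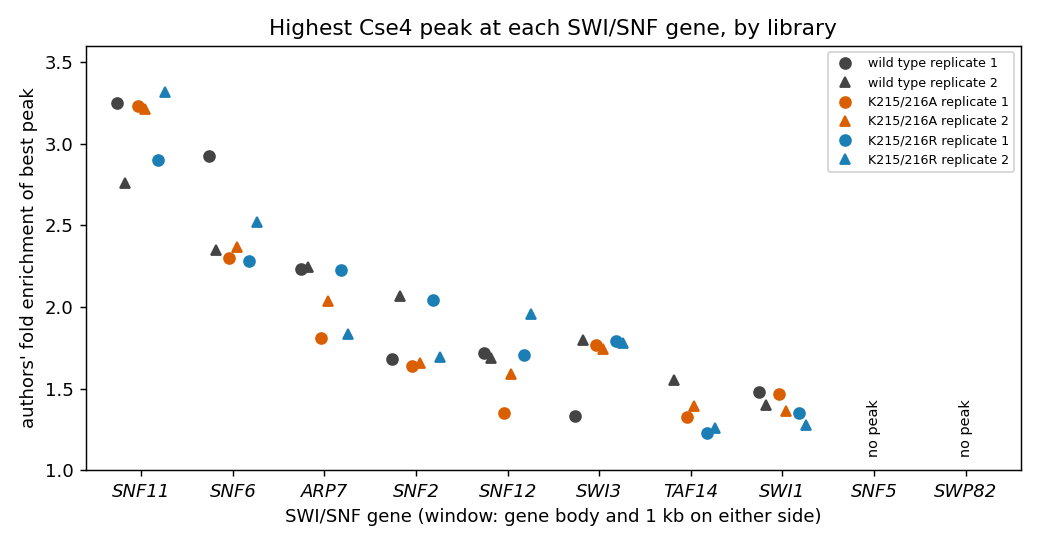
Authors' fold enrichment of the highest peak in each gene's window (y axis) for the 10 SWI/SNF genes (x axis), 1 point per library, colored by strain, with circles for replicate 1 and triangles for replicate 2. SNF11 lies between 2.76 and 3.32 and SNF6 between 2.28 and 2.93, while SWI1 stays at or below 1.48 and SNF5 and SWP82 have no peak.

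The peak upstream of SNF11 lay in the 1094 bp between SNF11 and the divergent gene IPT1, which encodes an enzyme of sphingolipid synthesis. Its summit was 332 to 337 bp upstream of SNF11 and about 759 bp from the start of IPT1, so it fell in the promoter window of SNF11 alone. The peak was 373 to 495 bp wide and ended before the SNF11 start in every library. No gene shared its summit in all 6 libraries by the promoter rule.

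The place of the summit was nearly the same in all strains. The choice of SNF11 used it in so far as a promoter peak has its summit within 500 bp upstream, and did not use its place within that stretch. It was 337 bp upstream in both wild type libraries, 336 and 332 bp for K215/216A, and 332 bp in both K215/216R libraries. The mutants' summits lay nearer to the gene, by 3 bp for K215/216A (exact permutation p 0.333, two-sided, adjusted 0.444 over 4 contrasts) and by 5 bp for K215/216R (exact permutation p 0.333, adjusted 0.444). K215/216R and K215/216A differed by 2 bp (exact permutation p 1, adjusted 1). Both mutants together lay 4 bp nearer than wild type (exact permutation p 0.0667, adjusted 0.267), in 4 of 4 mutant libraries. The smallest p is 0.33 for 2 against 2 libraries and 0.067 for 4 against 2, so these designs cannot pass 0.05. The labels give a mean size of 100 bp for the sonicated DNA.

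The pileup behind the SNF11 peak was deep in all libraries. The recovered pileup at the summit was 242 and 484 fragments for wild type, 657 and 649 for K215/216A, and 330 and 638 for K215/216R. The local background there was 73.8 and 175, 203 and 201, and 113 and 192 fragments, or 1.23 to 1.39 times the genome level. Divided by the genome background of its library, the pileup was 4.07 and 3.83 for wild type, 4.50 and 4.38 for K215/216A, and 3.83 and 4.09 for K215/216R. On this scale both K215/216A libraries were above the other 4, which was not so for the authors' fold. No test was made of this difference.

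**Figure D3:**
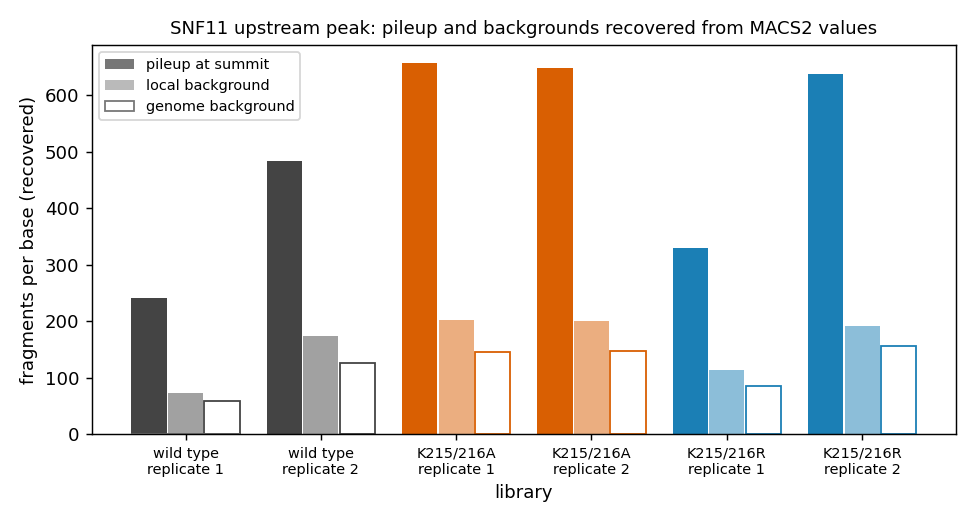
Recovered pileup at the summit upstream of SNF11 (solid bars), local background (pale bars) and genome background (open bars), in fragments per base (y axis, from 0), for the 6 libraries (x axis), colored by strain. The pileup runs from 242 in wild type replicate 1 to 657 in K215/216A replicate 1, and the 3 libraries of highest genome background have the 3 highest pileups.

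Lower peaks followed inside and behind SNF11. A summit 227 to 283 bp into the gene had a fold of 1.24 and 1.29 for K215/216A and 1.25 in wild type replicate 2, with no peak in the other libraries. The background around this place stood at 1.72 to 1.80 times the genome level. A summit 394 to 395 bp past the gene, before TPS2 (a phosphatase of trehalose synthesis), had 1.44 and 1.50 for K215/216A and 1.40 in K215/216R replicate 2. It was missing in both wild type libraries and in K215/216R replicate 1. The latter and wild type replicate 1 are the shallowest libraries, and the part of depth in these absences was not tested.

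**Figure D4:**
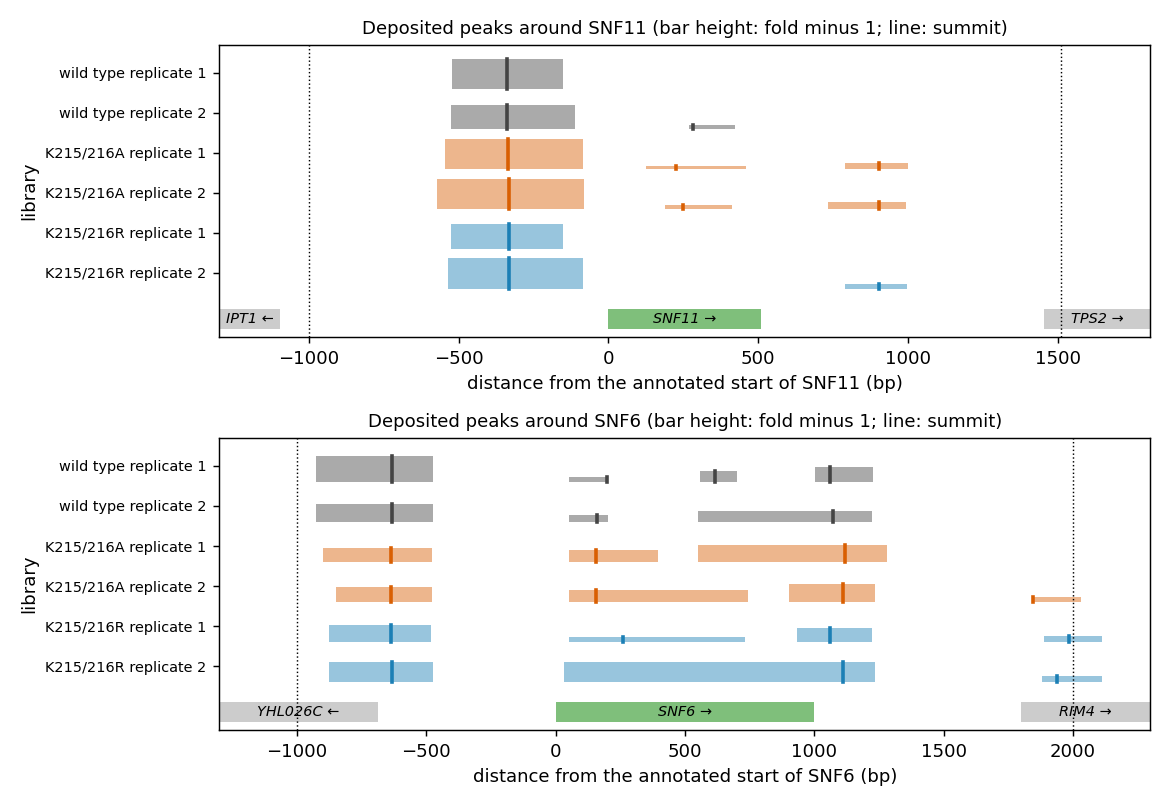
Deposited peaks around SNF11 (top) and SNF6 (bottom) in each of the 6 libraries (y axis), by distance from the annotated gene start in bp (x axis). Box height is the authors' fold minus 1, the dark line is the summit, dotted lines bound the window, and boxes at the base are genes with their direction. The SNF11 peak stands between SNF11 and IPT1 in all libraries, and SNF6 has a peak on either side of the gene in all libraries.

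The promoters with folds most like those of SNF11 were those of SFC1, TOS6, GAL1, GAL10 and OLE1. Likeness was the root mean square difference of log2 fold over the 6 libraries, among 570 genes with a promoter summit in all of them. It was 0.18 for SFC1 (a succinate and fumarate carrier of mitochondria), 0.21 for TOS6, 0.22 for the galactose genes GAL1 and GAL10, which share a summit, and 0.23 for OLE1 (the fatty acid desaturase). The median over the 570 genes was 0.90. Likeness was taken from the same promoter folds by which SNF11 was chosen. Its nearest genes are thus other promoters of high fold, and no shared pattern is read from them. In K215/216A the fold was 3.23 and 3.22 for SNF11, 2.87 and 2.83 for SFC1, and 2.54 and 2.60 for GAL1.

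SNF2 (YOR290C, XV, 855147 to 860258) encodes the catalytic ATPase and was flanked by a peak at each end, with almost none over its 5112 bp. The peak at its 5′ side lay in the 916 bp between SNF2 and the divergent YPK9, a vacuolar ATPase gene. Its summit was 640 to 642 bp upstream of SNF2 and about 277 bp from YPK9. The fold was 1.68 and 2.07 for wild type, 1.64 and 1.66 for K215/216A, and 1.74 and 1.68 for K215/216R, so the strains overlapped.

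The second SNF2 peak lay 463 to 465 bp past its 3′ end, toward a tRNA gene on the same strand that begins 424 bp from the summit. Its fold was 1.97 in wild type replicate 2, 1.54 and 1.50 for K215/216A, and 2.05 and 1.69 for K215/216R, and wild type replicate 1 had no peak there. Both K215/216A values were below the others at this site. The only peak in the body of SNF2 had a fold of 1.21, in K215/216R replicate 2.

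ARP7 (YPR034W, XVI, 639525 to 640958) encodes an actin-related protein that pairs with Arp9 in SWI/SNF and in the related remodeler RSC. It was, with SNF6, a gene with a peak over its body in all 6 libraries. The summit lay 90 to 205 bp into the gene, with folds of 2.23 and 1.70 for wild type, 1.71 and 1.64 for K215/216A, and 1.75 and 1.83 for K215/216R. The strains overlapped, and wild type replicate 1 was highest. As a multiple of the genome background the pileup was 2.67 and 2.44, 2.56 and 2.23, and 2.70 and 2.59.

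Lower peaks further into ARP7 were seen in 3 libraries. A summit 912 bp into the gene had a fold of 1.25 in K215/216A replicate 1, and summits 1188 and 1225 bp into it had 1.33 in K215/216A replicate 2 and 1.56 in K215/216R replicate 2. The other peaks of the window lay at its neighbors. Summits 540 to 872 bp upstream, inside HTS1 (histidyl-tRNA synthetase), had folds of 1.37 to 1.67. A peak that reached into the window from the 3′ side had its summit 1047 or 1048 bp past ARP7 and 203 bp before GLN1 (glutamine synthetase). Its fold was 1.92 and 2.25 for wild type, 1.81 and 2.04 for K215/216A, and 2.23 and 1.77 for K215/216R. It was the highest peak of the window in 4 libraries, the exceptions being wild type replicate 1 and K215/216R replicate 2, although its summit lay just outside.

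SNF6 (YHL025W, VIII, 54851 to 55849) encodes a core subunit and ranked next to SNF11. A peak stood at the far end of its 684 bp upstream region, 632 to 637 bp from SNF6 and about 51 bp from the start of the divergent gene YHL026C. Its fold was 2.93 and 2.35 for wild type, 2.02 and 2.12 for K215/216A, and 2.28 and 2.52 for K215/216R. Both K215/216A libraries were below the other 4, and so was the median fold of all peaks in their lists. Relative to the genome background the pileup was 3.06 and 2.68 for wild type, 2.81 and 2.71 for K215/216A, and 2.83 and 3.13 for K215/216R, and these overlapped. In units of the genome background, the local one was 1.04 and 1.14 for wild type, 1.39 and 1.27 for K215/216A, and 1.24 in each K215/216R library.

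At the 3′ end of SNF6 a second peak had its summit 64 to 121 bp past the gene, before RIM4, a meiotic RNA-binding protein gene. Its fold was 2.12 and 1.82 for wild type, 2.30 and 2.37 for K215/216A, and 2.08 and 2.51 for K215/216R. Here both K215/216A libraries were above both wild type libraries, and K215/216R spanned this gap. The genome-scaled pileup was 2.14 and 1.98, 2.44 and 2.66, and 2.09 and 2.52.

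Within the SNF6 body a lower peak lay near the start. Its summit was 158 to 259 bp into the gene, with folds of 1.38 and 1.53 for wild type, 1.88 and 1.93 for K215/216A, and 1.40 in K215/216R replicate 1. K215/216R replicate 2 had no summit there, but a peak 1205 bp wide covered the gene with its summit at the 3′ site. Wild type replicate 1 alone had a summit 618 bp into the gene, with a fold of 1.82, and peaks with summits elsewhere covered that place in the other libraries. Inside RIM4, summits 846 to 988 bp past SNF6 had folds of 1.35 to 1.45 in 3 libraries, none of them wild type.

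SWI3 (YJL176C, X, 92053 to 94530) encodes a scaffold subunit that holds the complex together, and its peak sat on the start of the coding sequence. The summit was 5 or 10 bp inside the gene in 5 libraries. Its fold was 1.80 in wild type replicate 2, 1.77 and 1.74 for K215/216A, and 1.79 and 1.78 for K215/216R. Wild type replicate 1 had no peak there. The background around it was at most 1.02 times that of the genome. Broader and lower peaks inside KRE9, a cell wall gene that diverges from SWI3, reached into the window in 4 libraries, with folds of 1.25 to 1.41. In the other libraries, wild type replicate 2 and K215/216R replicate 1, peaks on this side with folds of 1.36 and 1.57 missed the window by 2 and 69 bp, so the count of 4 rests on its edge.

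SNF12 (YNR023W, XIV, 670418 to 672118), also known as SWP73, encodes a core subunit and had no peak over its body. Summits in its promoter window, 238 to 393 bp upstream and inside the adjoining mitochondrial ribosomal protein gene MRPL50, had folds of 1.72 in wild type replicate 1, 1.35 and 1.37 for K215/216A, and 1.47 in K215/216R replicate 2. Past its 3′ end, inside the nuclear exosome cofactor gene MPP6, folds were 1.69 in wild type replicate 2, 1.32 and 1.59 for K215/216A, and 1.71 and 1.96 for K215/216R. The wild type libraries thus had a peak each, at opposite ends of the gene.

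SWI1 (YPL016W, XVI, 521014 to 524958) encodes a large DNA-binding subunit and had the lowest mean best fold of the genes called in every library, in each strain. A summit 317 to 321 bp past the gene, between SWI1 and the convergent HST2, a deacetylase gene, had folds of 1.48 and 1.40 for wild type, 1.46 and 1.36 for K215/216A, and 1.33 and 1.16 for K215/216R. Summits 992 to 1200 bp upstream, inside IRC15, had folds of 1.20 to 1.43, and the local background there was up to 2.13 times the genome background. No peak overlapped the body of SWI1.

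TAF14 (YPL129W, XVI, 305298 to 306137) encodes a small subunit that is also part of the general transcription factors TFIID and TFIIF. Its main site lay 779 to 783 bp upstream, inside the meiotic gene SPO19. The fold was 1.55 in wild type replicate 2, 1.33 and 1.30 for K215/216A, and 1.23 and 1.26 for K215/216R. Wild type replicate 2 was highest and wild type replicate 1 had no peak. A summit 359 bp upstream was called in wild type replicate 2, with a fold of 1.53, and in K215/216A replicate 2, with 1.39. Around the main site the local background reached 1.77 to 2.10 times the genome level.

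SNF5 and SWP82 were without peaks. SNF5 (YBR289W, II, 779667 to 782384) encodes a core subunit contacted by acidic activators, and the nearest peaks lay 1720 to 3540 bp from it. SWP82 (YFL049W, VI, 36803 to 38674) encodes an accessory subunit, and its nearest peaks lay 6410 to 6523 bp away, on the same side in all 6 libraries. Among genes with a window at least as long as that of SWP82, 7.82% had no peak in any library, and for SNF5 this share was 8.62%. The lists hold only peaks past a q of 0.05, so Cse4 below that limit was not detectable at this depth. The farthest peak kept for any of the 10 genes was 948 bp from its gene, and the nearest one left out was 1002 bp away, next to SWI3 in wild type replicate 2.

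Summits in promoters were few. Within 500 bp upstream, both libraries had a summit at 1 gene for wild type, 2 for K215/216A and 1 for K215/216R, where 15.0%, 23.8% and 17.6% of all genes were called. SNF11 was the gene called in each strain, and SNF12 was the other for K215/216A. Because SNF11 was chosen for its promoter peak, its own promoter calls follow from that choice and are no result. Leaving out either wild type library, or replicate 1 of K215/216R, raised the number of that strain to 2, by SNF12 or TAF14. SNF11 was also the only one with a promoter summit in all 6 libraries, as had 9.50% of all genes. Promoter summits in at least 1 library were seen at SNF11, SNF12 and TAF14, and at 49.0% of all genes. A peak over the body itself was called in both libraries for 2, 4 and 3 genes in the 3 strains, beside 33.1%, 43.3% and 37.3% of all genes. Peaks with a −log10 q of at least 10 were called at 3, 5 and 4 genes, beside 18.4%, 32.1% and 26.5%. The genes were not equally supported at this limit. SNF6, SNF11 and ARP7 had such a peak in 6 libraries, SNF2 in 5, SWI3 in 4, SNF12 in 2, TAF14 in 1 and SWI1 in none.

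**Figure D5:**
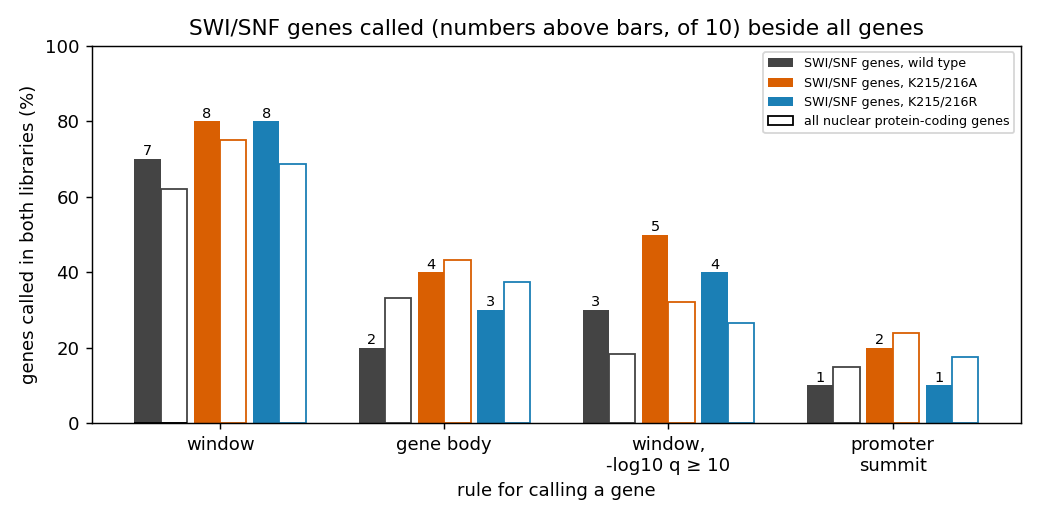
Percent of genes called in both libraries of a strain (y axis) under 4 rules (x axis): any peak over the window, a peak over the gene body, a peak of −log10 q of at least 10 over the window, and a summit within 500 bp upstream. Filled bars are the 10 SWI/SNF genes, with the number called above each bar, open bars are all nuclear protein-coding genes, and colors are strains. The SWI/SNF counts run from 1 for promoter summits to 8 for windows, beside 15.0% to 75.1% of all genes for the same rules. The promoter and window counts include SNF11, which was chosen for its promoter peak.

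In the authors' merged lists, with 1 list per strain, 11 regions overlapped the windows of 6 genes for wild type, 17 those of 8 genes for K215/216A, and 15 those of 8 genes for K215/216R. The whole lists held 2635, 3511 and 3052 regions in the same order. The share of all genes with a merged region is not given here, so no strain difference is read from these counts. SNF12, whose wild type peaks lay at different ends, and TAF14 had no merged region for wild type.

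Of the remaining SWI/SNF subunits, ARP9 and RTT102 had few peaks. ARP9, which encodes the partner of Arp7, had a best fold of 1.51 in wild type replicate 1 and 1.45 in K215/216R replicate 2 and no peak in the other 4 libraries. RTT102, a small subunit gene, had 1.24 in wild type replicate 2 and 1.84 and 1.52 for K215/216R.

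Shares of called genes in the lists of other remodelers are to be read beside the 62.1%, 75.1% and 68.8% of all genes called by the same rule. Of 14 genes of RSC, the essential relative of SWI/SNF, 8 had a peak in both wild type libraries, 11 for K215/216A and 9 for K215/216R. The highest mean best folds over 6 libraries were 2.25 ± 0.415 at RSC8, 1.96 ± 0.233 at RSC6 and 1.86 ± 0.455 at LDB7 (SD, n = 6 libraries). This SD pools the 3 strains and so holds strain differences as well as replicate spread. The mean at SNF11 was 3.11 ± 0.227, but SNF11 was chosen for its high fold, so its higher value is no result. Of 10 genes of the ISWI and CHD remodelers and FUN30, 6, 6 and 7 were called, with FUN30 at 2.45 ± 0.419, IOC3 at 2.03 ± 0.238 and IOC2 at 1.77 ± 0.0612. Of 22 genes of INO80 and of SWR1, which deposits the histone variant H2A.Z, 15, 19 and 15 were called. IES6 had a mean best fold of 2.48 ± 0.438, INO80 of 2.16 ± 0.242 and IES3 of 2.12 ± 0.351. Promoter summits in both libraries were called at 0, 2 and 2 RSC genes, 0, 1 and 1 of the ISWI, CHD and FUN30 genes, and 1, 7 and 1 of the INO80 and SWR1 genes, beside 15.0%, 23.8% and 17.6% of all genes. Nothing particular to these lists is read from their counts. RSC8, singled out after the values were seen, had 2.81 and 2.72 for K215/216A. These were above its 1.82 and 2.10 for wild type and 2.06 and 1.97 for K215/216R. At FUN30, IES6 and IES3 the order was the reverse, with both K215/216A folds below those of the other strains. The strains overlapped at the other named genes of the RSC, ISWI, CHD and FUN30, and INO80 and SWR1 lists, and no strain difference is read from this.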

How the data were processed

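The submitters' processing notes name Bowtie 1.0.0 for alignment, the sacCer3 build, MACS2 2.1.1.20160226 for peak calling, and bedtools 2.25.0. The control and the read filters are not given in the sources used here. The deposited lists, 1 per library, give for each peak a fold (a ratio of summit pileup to local background), a −log10 p, a −log10 q and a score of 10 times the −log10 q. The authors' merged lists give the mean fold of joined peaks. Fold was used to describe and rank peaks within a list and was not tested between strains.

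From these, peaks were assigned to genes of the RefSeq R64 table, with strand read from the systematic name and a minimum overlap of 1 bp. Pileup and local background were solved from fold and p assuming Poisson counts. A whole-number pileup gave back the deposited −log10 p within 0.001 for 99.8% to 100.0% of peaks. Peaks of extreme p, 6 to 11 per library, were not solved. The calls and the recovery were tested on simulated data. Summit position was compared by exact permutation tests with Benjamini-Hochberg adjustment (Python 3.11.15, numpy 2.4.6, scipy 1.17.1).

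All 10 genes, neighbors at their highest peaks, the 5 promoters most like SNF11 and the 3 highest genes of each other remodeler list were named by rule. TPS2, KRE9, HTS1 and other neighbors of lower peaks were added after their values were seen. The genes and lists were chosen with earlier results of these data known. Alternatives were a stricter q, equal list length, other windows, and each library left out. No sequence was used here, so a planned motif search was not run.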

Additional observations from a re-analysis of the deposited data

How the results depend on the processing

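With only peaks of −log10 q of at least 10, the number of genes with a peak in both libraries was 3 for wild type, 5 for K215/216A and 4 for K215/216R, and 3 in all 6 libraries. With the gene body alone it was 2, 4 and 3, and 2 in all 6. For these rules the shares of all genes in both libraries are given above, and those in all 6 libraries are not given here. The other window rules, equal list length and leaving out a library kept the numbers of genes with a peak within 1.5 times. Promoter counts depended on the window, with 0 genes in each strain and in all 6 libraries at 250 bp, and 4, 6, 5 and 4 genes at 1 kb. The shares of all genes at these widths are not given here, so the counts show only how the rule moves the number. In K215/216A the promoter count was 1 with the stricter q and 1 at equal list length. Leaving out a library gave promoter counts of 2 for wild type in each case, 2 to 3 for K215/216A and 1 to 2 for K215/216R, since the rule is then looser. The numbers of sites, compared in a way chosen after seeing the data, were 4, 8 and 7 with the stricter q, and 13 to 16 for wild type when a library was left out, the higher value without replicate 1. No stability is read from the mean best folds, since a mean of 2 libraries cannot move by 1 SD when 1 is left out, and genes that lost their call under an alternative have no value there. The labels do not say what a shared replicate number marks. With the replicate block, the exact permutation p of the SNF11 summit shift was 0.5 for K215/216A (3 bp) and for K215/216R (5 bp). It was 1 between the mutants (2 bp) and 0.111 for both mutants (4 bp). Even without the block these designs cannot pass the limit given above for this test. No call could therefore change with the block, and no stability is read from it. Without 1 library the shift of both mutants was 3.67 to 5 bp. Wild type replicate 1 has the least depth, which limits what its absent peaks can show.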
